A study of Homo sapiens with 24 samples.

Results

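Class I human leukocyte antigen (HLA) expression was followed through 6 genes, namely the heavy chain genes HLA-B, HLA-C, HLA-E, HLA-F and HLA-G and the light chain gene B2M, which encodes beta-2-microglobulin. The genes were chosen by symbol and matched through their Ensembl identifiers, and all 6 were found, with counts in libraries of both cell lines, among the 39321 genes of the count table. On GRCh38 (GENCODE release 44) the heavy chain genes lie on chromosome 6, HLA-F at 29722775-29738528, HLA-G at 29826967-29831125 and HLA-E at 30489509-30494194 on the plus strand, and HLA-C at 31268749-31272130 and HLA-B at 31353872-31367067 on the minus strand. B2M lies on the plus strand of chromosome 15 at 44711358-44718851.

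The RNA came from A498 and 786-O, established human lines of clear cell renal cell carcinoma (ccRCC). All cells carried an siRNA (20 nM), which was either a control (Cnsi) or aimed at PD-L1 (PD-L1si), and 24 hours after transfection they were given IFNγ (50 ng/mL, 24 hours) or nothing. Each of the 4 combinations of siRNA and IFNγ had 3 libraries in either line, 24 libraries in all, and groups with the cytokine are written Cnsi IFNγ and PD-L1si IFNγ. The labels speak of knockout where the protocols describe siRNA, which lowers a transcript without removing its gene, and they do not say whether the replicates were separate cultures, so p-values measure the spread between these libraries, which may be technical.

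Class I molecules carry peptides of proteins made inside the cell to its surface, where CD8 T cells read them. The heavy chain holds the peptide and differs between people and between genes, and it needs beta-2-microglobulin to fold and to reach the surface. HLA-B and HLA-C are classical, highly variable heavy chains present on most nucleated cells. HLA-E, HLA-F and HLA-G vary little, are mostly known as ligands of natural killer cell and myeloid receptors, and HLA-G is largely limited to the placenta. IFNγ raises class I transcription through IRF1, and through NLRC5, which works with the RFX and NF-Y factors on class I promoters.

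The libraries held 19256316 to 30350461 counts. According to the study the lines were sequenced on different instruments, so line and instrument cannot be told apart. Its supplementary tables assign both sets of libraries to the lines the other way round, and libraries are therefore called A498-labelled and 786-O-labelled throughout. Of the genes with over 1000 counts in A498-labelled libraries, 1475 were at 0 in every 786-O-labelled library. Only 1.29% of those carried the identifier version of release 44, against 71.0% of the genes over 1000 counts in both, and they were treated as not measured in 786-O-labelled libraries. Of 8 markers of ccRCC and kidney epithelial lines, 8 reached a mean of 1 CPM (counts relative to library size, scaled by the TMM method) in A498-labelled libraries and 5 in 786-O-labelled libraries, where PAX2, VEGFA and NNMT were among the rows at 0. The summed CPM of 5 leukocyte markers stayed between 0.155 and 1.80 in all libraries, that of 3 endothelial markers between 0 and 1.21, and that of 3 fibroblast markers between 0.259 and 3.92. No gene of the leukocyte or endothelial lists reached a mean of 1 CPM.

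CD274, the gene of PD-L1 and target of the siRNA, was at 3.99, 5.49 and 5.74 CPM in the A498-labelled Cnsi libraries against 0.810, 1.01 and 0.926 CPM with PD-L1si. Under IFNγ it was at 191, 199 and 191 CPM with Cnsi and at 26.9, 28.5 and 27.7 CPM with PD-L1si. In 786-O-labelled libraries it was at 3.87, 4.18 and 4.18 CPM with Cnsi and 1.46, 1.21 and 1.90 CPM with PD-L1si, and under IFNγ at 55.7, 59.6 and 65.8 CPM against 32.7, 30.8 and 30.6 CPM. PD-L1si libraries lay below Cnsi libraries in all 4 comparisons, by a log2 fold change of -2.81 ± 0.0547 under IFNγ in A498-labelled libraries and of -0.94 ± 0.0702 in 786-O-labelled libraries. With PD-L1si and IFNγ, CD274 was still above its level in untreated Cnsi libraries of either line.

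HLA genes are polymorphic and resemble each other and several pseudogenes. Reads were aligned to the reference alleles, and reads with a mapping quality under 12 were not counted, so that the levels set between HLA genes, and between lines with different alleles, are less certain than changes of a gene within a line. The gene models used for counting came from an earlier release (GENCODE release 33). Whether its HLA-B model overlaps HLA-C on the same strand was not checked here, which bears on the levels, shares and order of both genes. HLA-F-AS1, an antisense gene of HLA-F, was at 2.92 to 8.28 CPM, and the counting was stranded.

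The promoters are shown because class I genes are known to answer IFNγ through motifs near their start sites, which were searched for here. The RefSeq table held windows for 5 of the 6 genes, from 250 bases before to 50 bases after the start of transcription. HLA-E had no entry. Each window shown starts from the first base of the Ensembl canonical transcript, and the other 2 windows listed for HLA-G held no match. The stretches of 250 bases before the start are given 5′ to 3′ on the strand of the gene (RefSeq, GRCh38.p14), with every match to a searched motif in capitals, for HLA-B (chr6:31357180-31357429, minus strand), HLA-C (chr6:31272093-31272342, minus strand), HLA-F (chr6:29723184-29723433, plus strand), HLA-G (chr6:29827575-29827824, plus strand) and B2M (chr15:44711267-44711516, plus strand).
HLA-B: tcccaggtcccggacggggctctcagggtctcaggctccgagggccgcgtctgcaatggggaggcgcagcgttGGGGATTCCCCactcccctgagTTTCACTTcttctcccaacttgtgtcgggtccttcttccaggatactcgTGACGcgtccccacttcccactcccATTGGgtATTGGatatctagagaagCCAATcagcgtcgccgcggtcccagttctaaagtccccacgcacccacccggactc
HLA-C: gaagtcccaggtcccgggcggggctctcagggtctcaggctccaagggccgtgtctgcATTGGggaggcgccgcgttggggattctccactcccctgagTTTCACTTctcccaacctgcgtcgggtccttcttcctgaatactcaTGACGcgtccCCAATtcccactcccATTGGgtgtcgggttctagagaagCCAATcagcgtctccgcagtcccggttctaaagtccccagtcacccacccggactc
HLA-F: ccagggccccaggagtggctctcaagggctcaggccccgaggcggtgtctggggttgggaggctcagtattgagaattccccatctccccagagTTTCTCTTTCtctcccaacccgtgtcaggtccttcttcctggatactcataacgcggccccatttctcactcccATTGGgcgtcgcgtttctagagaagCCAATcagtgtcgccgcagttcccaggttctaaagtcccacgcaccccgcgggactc
HLA-G: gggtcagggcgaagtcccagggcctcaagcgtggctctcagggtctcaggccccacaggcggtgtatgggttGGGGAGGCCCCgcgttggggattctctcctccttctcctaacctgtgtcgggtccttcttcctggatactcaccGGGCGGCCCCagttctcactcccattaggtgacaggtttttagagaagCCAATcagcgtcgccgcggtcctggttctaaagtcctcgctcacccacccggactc
B2M: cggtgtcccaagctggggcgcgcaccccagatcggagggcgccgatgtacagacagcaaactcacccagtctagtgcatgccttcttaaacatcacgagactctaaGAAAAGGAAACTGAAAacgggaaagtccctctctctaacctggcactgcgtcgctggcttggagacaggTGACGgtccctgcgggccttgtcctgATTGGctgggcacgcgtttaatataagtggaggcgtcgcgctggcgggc

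The motifs were searched on both strands of the windows. CCAAT, the core of the Y box that NF-Y binds, stood in all 5, and 34.6% of the 35116 promoters of the table hold it. Its matches closest to the start site began at -56 in HLA-B, HLA-C and HLA-G, at -57 in HLA-F and at -49 in B2M. TGACG, found in the X2 box and in cAMP response elements, stood in HLA-B (from -106), HLA-C (from -105) and B2M (from -75), and in 24.6% of all promoters. GAAA, any 2 bases and GAAA again, the form of an interferon-stimulated response element, stood in HLA-F (from -156) and, as overlapping matches, in B2M (from -144 and from -138), and in 3.57% of all promoters.

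In HLA-B (from -155) and HLA-C (from -151) the same region held TTTCNCTT, a shorter form that was added after the sequences had been seen. It overlapped the interferon-stimulated response element match in HLA-F, was not among the letters of the HLA-G and B2M windows, and stood in 7.63% of all promoters. GGG, any 4 bases and CCC, a loose form of an NF-κB site, stood in HLA-B (from -177) and HLA-G (from -178 and from -104), and in 17.8% of all promoters. TTCNNNGAA, the form of a gamma-activated site, stood in 7.66% of all promoters and was not among the letters of these windows. These are matches of letters and not measured binding.

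IFNγ raised the transcripts of the 6 genes in Cnsi cells of both lines, with HLA-G in 786-O-labelled libraries close to the limit of the test. A gene was called where the quasi-likelihood test of edgeR, with Benjamini-Hochberg adjustment over all genes, gave an adjusted p under 0.05 and the log2 fold change exceeded 0.5 in size. Of the 6 genes, 6 were called higher in A498-labelled libraries, where 18.2% of the 20916 genes tested were called higher and 18.5% lower. Of the 6, 6 were also called higher in 786-O-labelled libraries, where 11.1% of 21209 genes were. The CPM of the 3 treated and the 3 untreated libraries did not overlap for 6 of the 6 genes in either line, as was so for 66.0% of the genes tested in A498-labelled libraries and 47.3% in 786-O-labelled libraries. The median log2 fold change of the 6 genes was 2.73 in A498-labelled libraries and 1.97 in 786-O-labelled libraries, against -0.03 and 0.00488 over all genes tested.

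**Figure D1:**
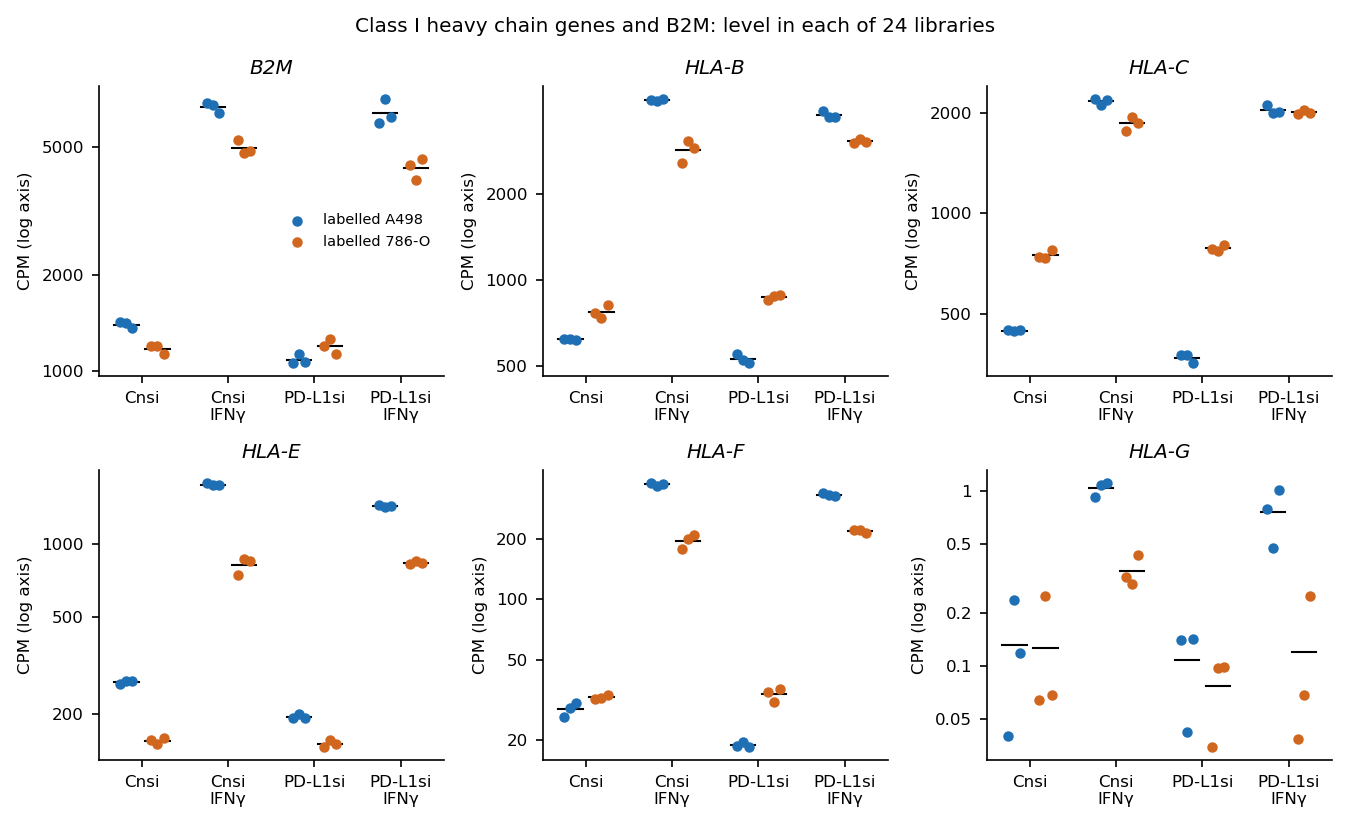
Level of each gene in every library, in CPM on a log axis, by siRNA and IFNγ state, with points for the 3 libraries of a group, bars for their mean and colours for the line in the label. In every panel but that of HLA-G, where libraries hold 1 to 28 counts, all IFNγ libraries lie above all untreated libraries of the same line, and the lines were scaled apart.

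B2M, the light chain shared by all class I molecules, was at 1418, 1415 and 1358 CPM in the A498-labelled Cnsi libraries and at 6848, 6764 and 6401 CPM with IFNγ. This was a log2 fold change of 2.26 ± 0.0485 (SE, n = 3 per group, adjusted p = 2.8e-28 by edgeR). In 786-O-labelled libraries it went from 1199.8, 1199 and 1127 CPM to 5250.1, 4777 and 4856 CPM, a log2 fold change of 2.08 ± 0.0575 (adjusted p = 1.8e-20). Per length of the canonical transcript, B2M had the highest level (RPKM) of all genes in the 6 A498-labelled IFNγ libraries, and it was among the 10 highest in the 6 in 786-O-labelled libraries. Without IFNγ its rank was 26 to 40 in A498-labelled libraries and 37 to 45 in 786-O-labelled libraries. Genes not measured in 786-O-labelled libraries could not rank above it there, so its ranks are not comparable between the lines. Its rank depended on the length used, and over the union of exons it was 5 to 10 and 18 to 26 with IFNγ and 55 to 71 and 68 to 81 without.

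HLA-B, a classical heavy chain, was at 623, 624 and 620.3 CPM in the A498-labelled Cnsi libraries and at 4246, 4231 and 4276 CPM with IFNγ, a log2 fold change of 2.77 ± 0.0394 (6.83-fold, adjusted p = 7.6e-36). In 786-O-labelled libraries it rose from 771, 738 and 821 CPM to 2569, 3058 and 2894 CPM, a log2 fold change of 1.87 ± 0.0558 (3.66-fold, adjusted p = 9.3e-20). In CPM scaled within each line, 786-O-labelled values lay above the A498-labelled ones without IFNγ and below them with it. Levels were not tested between the lines, which differed in instrument and in the genes measured, so this order was not established. HLA-C, the other classical heavy chain measured, rose from 446, 442 and 447 CPM to 2196, 2117 and 2189 CPM in A498-labelled libraries, a log2 fold change of 2.28 ± 0.0395 (4.87-fold, adjusted p = 3.7e-33). It rose in 786-O-labelled libraries from 739, 735 and 778 CPM to 1765, 1949 and 1865 CPM, a log2 fold change of 1.31 ± 0.0463 (2.48-fold, adjusted p = 4.5e-18). HLA-C had the lowest log2 fold change of the heavy chains in both lines.

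Of the less variable heavy chains, HLA-E, the ligand of the NKG2A and NKG2C receptors of natural killer cells, rose from 266, 273 and 273 CPM to 1766, 1729.7 and 1729 CPM in A498-labelled libraries, a log2 fold change of 2.68 ± 0.0387 (6.43-fold, adjusted p = 1.2e-35). It rose in 786-O-labelled libraries from 157, 151 and 159 CPM to 745, 864 and 848 CPM, a log2 fold change of 2.39 ± 0.0539 (5.26-fold, adjusted p = 1.9e-22). Here the folds of the lines lay closer than those of HLA-B or HLA-C. HLA-F, which natural killer cell receptors bind also without peptide, rose from 26.0, 28.9 and 30.5 CPM to 377, 366 and 374 CPM in A498-labelled libraries, a log2 fold change of 3.71 ± 0.0495 (13.1-fold, adjusted p = 1.3e-36). In 786-O-labelled libraries it rose from 31.8, 32.3 and 33.4 CPM to 178, 199 and 209 CPM, a log2 fold change of 2.59 ± 0.0611 (6.02-fold, adjusted p = 5.6e-22). HLA-F had the highest log2 fold change of the 6 genes in both lines.

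HLA-G, a ligand of inhibitory leukocyte receptors, was near the limit of detection. The A498-labelled Cnsi libraries held 1, 6 and 3 counts and those with IFNγ 22, 28 and 23, a log2 fold change of 2.92 ± 0.411 (adjusted p = 1.2e-07). Summed over the libraries, 73 counts stood against 10, a ratio of 7.81 with an exact 95% interval of 4.01 to 17.0 for counting error. In 786-O-labelled libraries the Cnsi libraries held 2, 7 and 2 counts and those with IFNγ 9, 8 and 11, a log2 fold change of 1.45 ± 0.565 (adjusted p = 0.044), and the ratio of 28 to 11 summed counts was 2.80 (1.35 to 6.24). The groups did not overlap, but libraries held at most 11 counts here, and the call was lost with DESeq2 (adjusted p = 0.14) and when any 1 of 6 libraries of this line was left out, namely replicate 1 or 3 of Cnsi, any of Cnsi IFNγ or replicate 3 of PD-L1si (log2 fold changes of 1.12 to 1.56). The stricter filterByExpr filter left HLA-G out of the test.

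**Figure D2:**
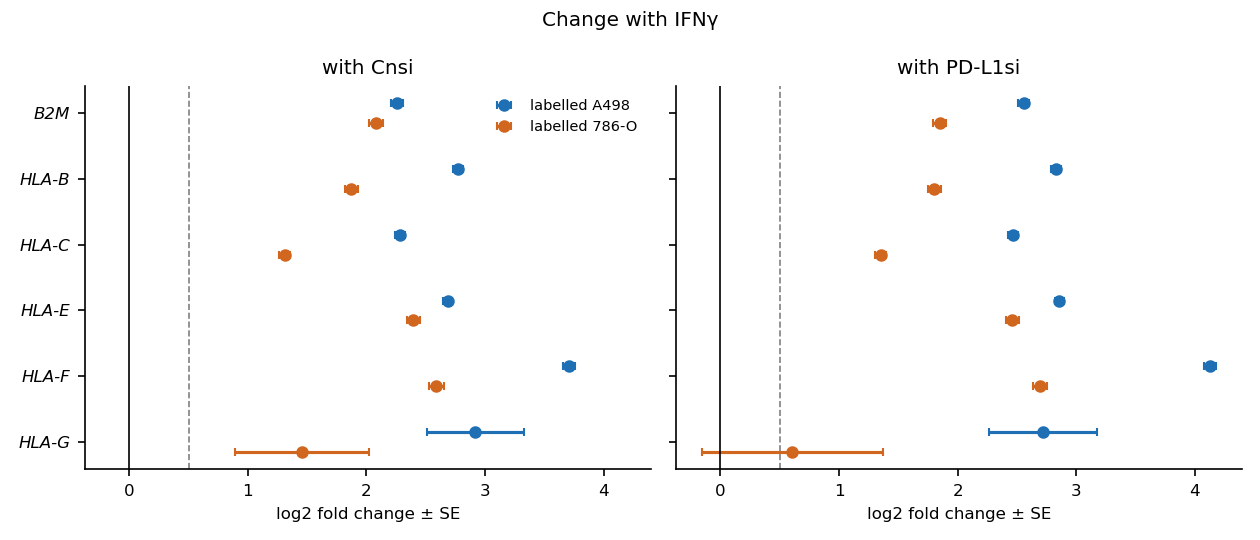
Log2 fold change with IFNγ ± SE from edgeR, with Cnsi at left and PD-L1si at right, for each gene and both labelled lines, where the dashed line marks the threshold of 0.5. The values of 786-O-labelled libraries lie below those of A498-labelled ones for every gene in both panels, and HLA-G in 786-O-labelled libraries with PD-L1si is the only point that was not called.

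With PD-L1si, IFNγ raised the same genes apart from HLA-G in 786-O-labelled libraries. In the A498-labelled PD-L1si libraries 6 of 6 genes were called higher with IFNγ, beside 17.6% of all genes tested, and in 786-O-labelled libraries 5 of 6 were, beside 11.0%. Libraries with and without IFNγ did not overlap for 6 of 6 genes in A498-labelled libraries (62.4% of all genes tested) and for 5 of 6 in 786-O-labelled libraries (49.9%). The log2 fold changes in A498-labelled libraries were 2.56 ± 0.0491 for B2M, 2.83 ± 0.0395 for HLA-B, 2.47 ± 0.0399 for HLA-C, 2.86 ± 0.0392 for HLA-E, 4.13 ± 0.0518 for HLA-F and 2.72 ± 0.458 for HLA-G. Those in 786-O-labelled libraries were 1.85 ± 0.0571 for B2M, 1.80 ± 0.0557 for HLA-B, 1.35 ± 0.0464 for HLA-C, 2.46 ± 0.054 for HLA-E and 2.69 ± 0.061 for HLA-F. HLA-G was the gene not called, with 1, 3 and 3 counts without IFNγ and 1, 2 and 7 with it, a log2 fold change of 0.60 ± 0.762 (adjusted p = 0.58), and a change was not detectable at this depth.

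Levels were compared between genes per length of the canonical transcript (RPKM). By this length the order was B2M, HLA-B, HLA-C, HLA-E, HLA-F and HLA-G in each of the 8 groups. In A498-labelled Cnsi libraries the means were 1482 ± 35.9 RPKM (SD, n = 3) for B2M, 405 ± 1.37 for HLA-B, 289 ± 1.50 for HLA-C, 106 ± 1.58 for HLA-E, 19.2 ± 1.55 for HLA-F and 0.101 ± 0.0758 for HLA-G. With IFNγ they were 7074 ± 252, 2768 ± 15.0, 1405 ± 28.6, 683 ± 8.34, 252 ± 3.78 and 0.787 ± 0.0765 RPKM in the same order. B2M stood above each heavy chain gene in all groups, by either length. In 786-O-labelled libraries the IFNγ means were 5261 ± 269, 1849 ± 162, 1206 ± 59.7, 321 ± 25.2, 132 ± 10.6 and 0.266 ± 0.0553 RPKM with Cnsi. By canonical length, neighbours in this order did not overlap in any group except HLA-B and HLA-C in the 786-O-labelled Cnsi libraries, at 506 ± 27.0 and 487 ± 15.6 RPKM, where HLA-B was the higher of the pair within each of the 3 libraries. The order of HLA-B and HLA-C turned with the length used. Over the union of exons, a length chosen after seeing the data, HLA-C stood above HLA-B in 6 of the 8 groups, all but the A498-labelled IFNγ groups, at 178 ± 0.922 against 135 ± 0.455 RPKM in A498-labelled Cnsi libraries and 299 ± 9.61 against 168 ± 8.97 RPKM in 786-O-labelled Cnsi libraries. The other neighbours kept their order over the union of exons. The 6 genes together held 0.280 ± 0.00214% of all counts in A498-labelled Cnsi libraries and 1.40 ± 0.0205% with IFNγ, and 0.301 ± 0.0035% and 1.01 ± 0.00533% in 786-O-labelled libraries. Genes not measured in 786-O-labelled libraries add nothing to their totals, so these percentages are not comparable between the lines.

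The makeup of the heavy chain transcripts shifted with IFNγ, since the genes rose by different amounts. The share of each gene in the summed RPKM of the 5 heavy chain genes is given as a description without a test. HLA-B went from 49.5 ± 0.259% to 54.2 ± 0.347% (SD, n = 3) in A498-labelled Cnsi libraries and from 47.0 ± 0.627% to 52.7 ± 0.823% in 786-O-labelled libraries, and HLA-C from 35.2 ± 0.219% to 27.5 ± 0.307% and from 45.3 ± 0.537% to 34.4 ± 0.887%. So HLA-B took up more and HLA-C less of the heavy chain transcripts in both lines, with no overlap between treated and untreated libraries. HLA-E went from 13.0 ± 0.16% to 13.4 ± 0.148% in A498-labelled libraries and from 5.69 ± 0.122% to 9.16 ± 0.143% in 786-O-labelled libraries. HLA-F went from 2.35 ± 0.183% to 4.93 ± 0.0307% and from 2.04 ± 0.0505% to 3.77 ± 0.179%, and HLA-G stayed at or under 0.0220% in every library. With PD-L1si, HLA-B went from 51.2 ± 0.743% to 53.8 ± 0.115% in A498-labelled libraries and from 49.0 ± 0.537% to 52.8 ± 0.0285% in 786-O-labelled libraries, and HLA-C again took up less with IFNγ, at 29.0 ± 0.16% and 34.6 ± 0.0641%. The sum holds these 5 genes and no other heavy chain. The size of a share depended on the length, and over the union of exons HLA-B went from 32.7 ± 0.206% to 37.3 ± 0.318% in A498-labelled Cnsi libraries and from 31.8 ± 0.538% to 36.5 ± 0.731% in 786-O-labelled libraries, and HLA-C from 43.1 ± 0.283% to 35.0 ± 0.343% and from 56.7 ± 0.484% to 44.1 ± 0.95%.

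The ratio of B2M to the summed heavy chain RPKM moved in opposite directions in the lines. In A498-labelled Cnsi libraries it went from 1.81 ± 0.0474 to 1.38 ± 0.0548 with IFNγ, a log2 difference of -0.38 ± 0.04, and in 786-O-labelled libraries from 1.16 ± 0.0862 to 1.51 ± 0.191, a log2 difference of 0.37 ± 0.121. Treated and untreated libraries did not overlap in either line. Over the union of exons the ratio was lower, at 1.09 ± 0.0296 and 0.867 ± 0.0337 in A498-labelled libraries and 0.714 ± 0.0507 and 0.95 ± 0.116 in 786-O-labelled libraries, so that the side of 1 on which it lay depended on the length, while the log2 differences of -0.33 and 0.41 kept their direction. The exact permutation test, two-sided, gave p = 0.1 in each, which is the smallest value that 3 against 3 libraries allow, and 0.267 after Benjamini-Hochberg adjustment over the 8 comparisons of this ratio. With PD-L1si the log2 differences with IFNγ were -0.20 ± 0.0986 in A498-labelled libraries (exact p = 0.2) and 0.15 ± 0.0935 in 786-O-labelled libraries (exact p = 0.3), and the groups overlapped. Under IFNγ, PD-L1si against Cnsi gave -0.31 ± 0.128 in 786-O-labelled libraries (exact p = 0.1, no overlap) and 0.10 ± 0.0982 in A498-labelled libraries (exact p = 0.4, overlap), and without IFNγ -0.09 ± 0.0827 (exact p = 0.4) and -0.08 ± 0.0409 (exact p = 0.2).

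Within groups, B2M and HLA-C deviated from their group means to opposite sides in 12 of the 12 786-O-labelled libraries and in 7 of 12 with the A498 label. These values share libraries and scaling and are given as a description. Over the 12 libraries of a line the deviations of B2M and HLA-C had r = -0.78 in 786-O-labelled libraries and r = -0.36 in A498-labelled libraries, while those of HLA-B and HLA-C had r = 0.93 and 0.78. B2M and HLA-B deviated to opposite sides in 11 of 12 786-O-labelled libraries (r = -0.62) and in 7 of 12 A498-labelled libraries (r = -0.45). The part of this spread in the B2M ratio was not tested.

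**Figure D3:**
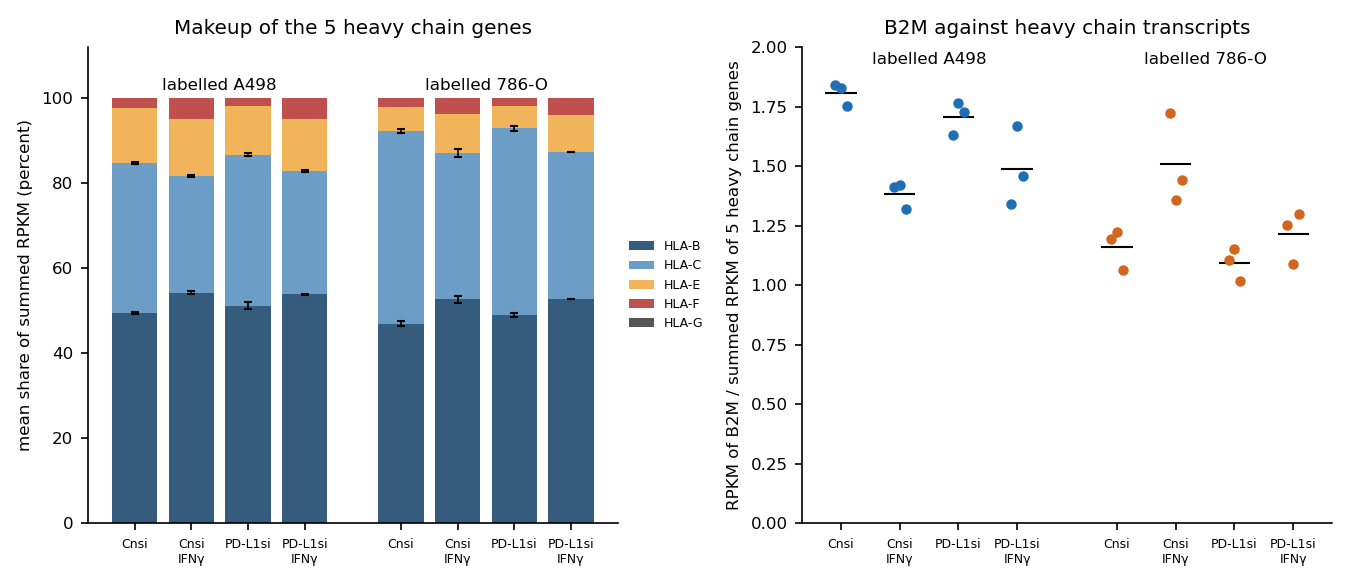
Left, mean share of each heavy chain gene in the summed RPKM of the 5 genes, in percent by group, with error bars of 1 SD (n = 3) at the upper ends of HLA-B and HLA-C. Right, B2M RPKM divided by that sum in each library, with a bar for the mean, which falls from 1.81 to 1.38 with IFNγ in A498-labelled Cnsi libraries and rises from 1.16 to 1.51 in 786-O-labelled libraries.

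The study asked how PD-L1 silencing alters the answer of ccRCC cells to IFNγ. From the enrichment of gene sets it reported that silencing at least partly reversed the IFNγ response in both lines. Calls of single genes are another measure, and by these none of the 6 genes passed both thresholds in that comparison. Under IFNγ, PD-L1si against Cnsi gave 0 of 6 calls in A498-labelled libraries, where 10.1% of all genes were called, and 0 of 6 in 786-O-labelled libraries, where 3.03% were. DESeq2 also called 0 in either line, and edgeR gave an unadjusted p under 0.05 for 4 genes in each. In A498-labelled libraries the fold changes under the threshold had an adjusted p under 0.05 for 3 genes, which were lower with PD-L1si. HLA-E was at 1433, 1406 and 1419 CPM with PD-L1si, each below its 3 Cnsi IFNγ libraries above, with a log2 fold change of -0.30 ± 0.0361 (adjusted p = 2.8e-08). HLA-B was at 3893, 3705 and 3713 CPM, with -0.17 ± 0.0367 (adjusted p = 0.00026), and HLA-F at 337, 329 and 324 CPM, with -0.18 ± 0.0412 (adjusted p = 0.00089).

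HLA-C at 2115, 1996 and 2012 CPM (log2 fold change -0.09 ± 0.0375, adjusted p = 0.075) and B2M at 5932, 7049.8 and 6183 CPM (-0.06 ± 0.0462, adjusted p = 0.32) did not pass the adjusted p. Of these B2M libraries, replicate 2 lay above and the others below all Cnsi IFNγ libraries. HLA-G held 18, 9 and 21 counts against 22, 28 and 23 (adjusted p = 0.27), a ratio of summed counts of 0.741 (0.504 to 1.08). HLA-B, HLA-C, HLA-E and HLA-F were lower in every PD-L1si library, so that libraries did not overlap for 4 of the 6 genes, beside 41.6% of all genes tested.

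In 786-O-labelled libraries under IFNγ, B2M was the gene with an adjusted p under 0.05. It was at 4392, 3936 and 4574 CPM with PD-L1si, below the 3 Cnsi libraries, with a log2 fold change of -0.21 ± 0.0552 (adjusted p = 0.012, under the fold threshold). HLA-B was at 3018, 3102 and 3024 CPM (0.10 ± 0.0539, adjusted p = 0.24), HLA-C at 1982, 2043 and 1995 CPM (0.11 ± 0.0455, adjusted p = 0.12), HLA-E at 823, 850.3 and 831 CPM (0.03 ± 0.0507, adjusted p = 0.79) and HLA-F at 220.4, 221 and 214 CPM (0.16 ± 0.055, adjusted p = 0.053). The fitted values of the heavy chains other than HLA-G were thus above 0 here and below 0 in A498-labelled libraries. Libraries did not overlap for 4 of 6 genes, HLA-C and HLA-F higher and HLA-G and B2M lower with PD-L1si, beside 30.2% of all genes tested.

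HLA-G in 786-O-labelled libraries under IFNγ held 1, 2 and 7 counts with PD-L1si against 9, 8 and 11, a log2 fold change of -1.50 ± 0.578 (adjusted p = 0.089). The ratio of summed counts was 0.346 (0.15 to 0.735). Leaving out a library each, the log2 fold change ran from -2.59 to -1.11. It passed both thresholds only without replicate 3 of PD-L1si IFNγ (-2.59, adjusted p = 0.023 by edgeR), the library with 7 counts.

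Without IFNγ, A498-labelled PD-L1si libraries held less of the class I transcripts. HLA-F fell past the threshold, from 26.0, 28.9 and 30.5 CPM to 18.6, 19.5 and 18.5 CPM, a log2 fold change of -0.59 ± 0.058 (adjusted p = 2.2e-10), so that 1 of 6 genes was called, beside 5.60% of all genes called lower. HLA-E was at 192, 201 and 194 CPM (-0.47 ± 0.0376, adjusted p = 1.9e-12), B2M at 1061, 1132 and 1066 CPM (-0.36 ± 0.0466, adjusted p = 1.5e-07), HLA-C at 376, 377 and 356 CPM (-0.27 ± 0.0383, adjusted p = 7e-07) and HLA-B at 551, 527 and 514 CPM (-0.23 ± 0.0373, adjusted p = 6.2e-06), all under the fold threshold. For these 5 of the 6 genes every PD-L1si library lay below every Cnsi library. Over all genes tested, the libraries of 44.5% did not overlap, counting those higher and those lower with PD-L1si. HLA-G held 4, 1 and 4 counts against 1, 6 and 3, which overlap (adjusted p = 0.84).

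In 786-O-labelled libraries without IFNγ edgeR and DESeq2 called 0 of 6 genes, with 1 at an unadjusted p under 0.05, beside 2.81% of all genes. HLA-B was at 851, 881 and 888 CPM with PD-L1si, above the 3 Cnsi libraries, with a log2 fold change of 0.17 ± 0.0542 (adjusted p = 0.039, under the fold threshold), and was the 1 gene of 6 whose libraries did not overlap, beside 30.5% of all genes. HLA-C at 783, 773 and 801 CPM, HLA-E at 147, 158 and 151 CPM, HLA-F at 34.6, 30.9 and 35.8 CPM and B2M at 1194, 1258 and 1132 CPM overlapped their Cnsi libraries, with log2 fold changes of -0.04 to 0.07.

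**Figure D4:**
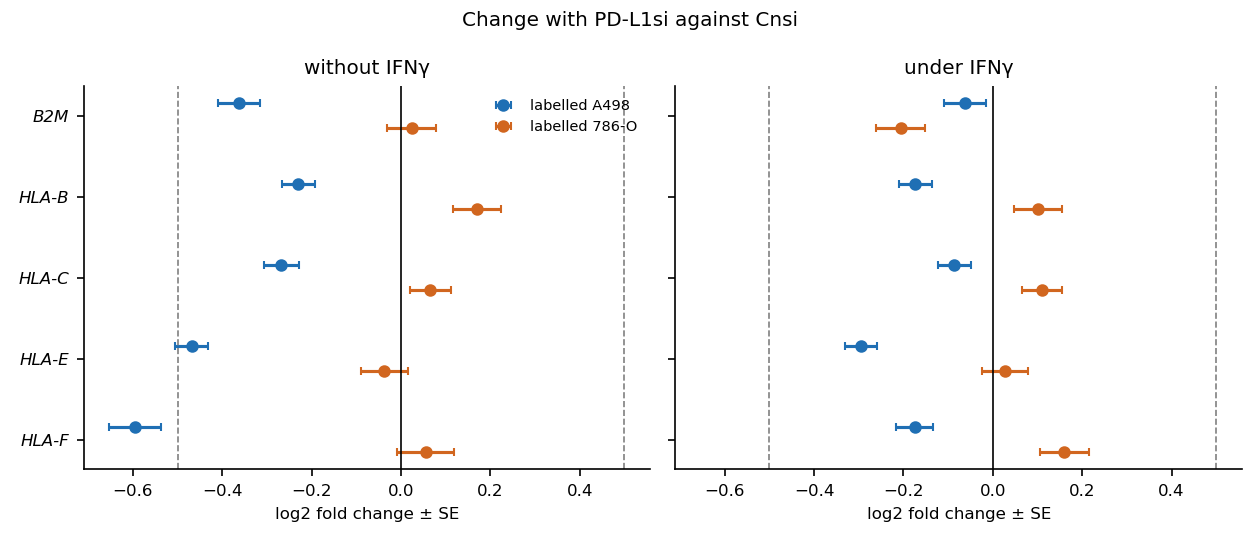
Log2 fold change of PD-L1si against Cnsi ± SE, without IFNγ at left and under IFNγ at right, for B2M and the heavy chain genes other than HLA-G, where dashed lines mark the threshold of 0.5 in either direction. Of the points drawn, HLA-F in A498-labelled libraries without IFNγ (-0.59) lies past a dashed line.

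The interaction of siRNA and IFNγ, which is above 0 where the log2 fold change with IFNγ was larger with PD-L1si, gave 0 of 6 calls in A498-labelled libraries (2.45% of all genes were called) and 0 of 6 in 786-O-labelled libraries (0.0990%). DESeq2 called 0 in both, and edgeR's unadjusted p was under 0.05 for 4 genes and for 1. In A498-labelled libraries it was 0.42 ± 0.0712 for HLA-F (adjusted p = 8.5e-05), 0.30 ± 0.0656 for B2M (adjusted p = 0.0022), 0.18 ± 0.0536 for HLA-C (adjusted p = 0.026) and 0.17 ± 0.0521 for HLA-E (adjusted p = 0.029), all under the fold threshold, and 0.06 ± 0.0523 for HLA-B (adjusted p = 0.59). HLA-F, B2M, HLA-C and HLA-E thus lay further below Cnsi without IFNγ than with it, in comparisons that share their libraries. In 786-O-labelled libraries it ran from -0.23 ± 0.0782 for B2M (adjusted p = 0.37) to 0.11 ± 0.0838 for HLA-F (adjusted p = 0.80), apart from HLA-G (-0.85 ± 1.00).

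The lines differed in how far IFNγ raised the heavy chains. In a model of all 24 libraries, the difference in log2 fold change, 786-O-labelled minus A498-labelled, with Cnsi was -0.95 ± 0.0734 for HLA-B (adjusted p = 6e-16), -1.03 ± 0.0664 for HLA-C (adjusted p = 8.8e-19) and -1.17 ± 0.0798 for HLA-F (adjusted p = 6.2e-18). These 3 of 6 genes were called lower, beside 11.0% of the 24126 genes tested. HLA-E (-0.34 ± 0.07, adjusted p = 6.3e-05) and B2M (-0.23 ± 0.0797, adjusted p = 0.02) stayed under the fold threshold, and HLA-G (-1.53 ± 0.789, adjusted p = 0.14) had a wide error. With PD-L1si 4 of 6 were called lower, beside 10.5% of all genes, with -1.06 ± 0.0734 for HLA-B, -1.15 ± 0.0664 for HLA-C, -1.47 ± 0.0815 for HLA-F and -0.75 ± 0.0799 for B2M. HLA-E (-0.44 ± 0.0702) stayed under the fold threshold, and HLA-G (-2.16 ± 0.977, adjusted p = 0.089) did not pass the adjusted p.

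The change with PD-L1si under IFNγ gave 0 of 6 line differences past the thresholds by edgeR or DESeq2, beside 3.95% of all genes, with an unadjusted p under 0.05 for 4. Without IFNγ 1 of 6 was called higher, beside 2.09%, namely HLA-F with 0.63 ± 0.0887 (adjusted p = 5.9e-07), for which PD-L1si lowered the level in A498-labelled libraries and 786-O-labelled libraries overlapped. For the interaction 1 of 6 was called lower, beside 0.713%, namely B2M with -0.52 ± 0.113 (adjusted p = 0.0062), a value close to the threshold, which it no longer passed among protein-coding genes alone (-0.50) or when any 1 of 5 libraries was left out. These were replicate 2 of PD-L1si IFNγ and replicate 3 of Cnsi IFNγ with the A498 label, and replicate 1 of Cnsi IFNγ, replicate 2 of PD-L1si and replicate 2 of PD-L1si IFNγ with the 786-O label, and the difference without them ran from -0.49 to -0.43.

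Class I molecules are loaded by a dedicated machinery, in which TAP1 and TAP2 carry peptides into the endoplasmic reticulum, tapasin (TAPBP) holds TAP and the empty heavy chain together, and the immunoproteasome makes the peptides. With IFNγ in A498-labelled Cnsi libraries 6 of 10 peptide loading genes were called higher and 1 lower, the chaperone CALR (-1.48 ± 0.0398), and in 786-O-labelled libraries 5 of 7 tested were higher, beside 18.2% of all genes called higher and 18.5% lower in A498-labelled libraries and 11.1% higher in 786-O-labelled libraries. TAP1 rose by 4.14 ± 0.0428 on the log2 scale in A498-labelled and by 3.49 ± 0.0633 in 786-O-labelled libraries. TAPBP rose by 1.01 ± 0.0435 on the log2 scale in A498-labelled libraries, and TAPBP, CALR and TAP2 were among the rows at 0 in 786-O-labelled libraries. The immunoproteasome and its activator rose with 5 of 5 and 4 of 4 genes tested, by 1.84 (PSME1) to 4.36 (PSMB9) in A498-labelled libraries and 1.75 (PSME1) to 3.23 (PSMB10) in 786-O-labelled libraries. The median log2 fold changes of the peptide loading and immunoproteasome lists were 0.93 and 2.52 in A498-labelled libraries, against -0.03 over all genes, and 1.26 and 2.66 in 786-O-labelled libraries, against 0.00488. They were taken over 10 and 5 genes in the former and 7 and 4 in the latter, and are not comparable between the lines.

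Of the regulators of class I genes, 10 of 14 were called higher in A498-labelled libraries and 5 of 12 tested in 786-O-labelled libraries, beside the same 18.2% and 11.1% of all genes, and none lower. IRF1, which binds interferon response elements, rose most of this list, by 4.62 ± 0.045 and 4.77 ± 0.0568. NLRC5, the transactivator of class I promoters, was at 34.0 ± 2.46 CPM (SD, n = 3) and 329 ± 6.35 CPM with IFNγ in A498-labelled libraries and at 26.7 ± 1.02 and 396 ± 31.6 CPM in 786-O-labelled libraries, log2 fold changes of 3.28 ± 0.0543 and 3.89 ± 0.062. The line difference with Cnsi was 0.56 ± 0.0825 for NLRC5 and -0.71 ± 0.0761 for TAP1, both called, and 0.10 ± 0.0707 for IRF1 (adjusted p = 0.35). NLRC5 thus rose more, and HLA-B, HLA-C, HLA-F and TAP1 rose less, in 786-O-labelled libraries.

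**Figure D5:**
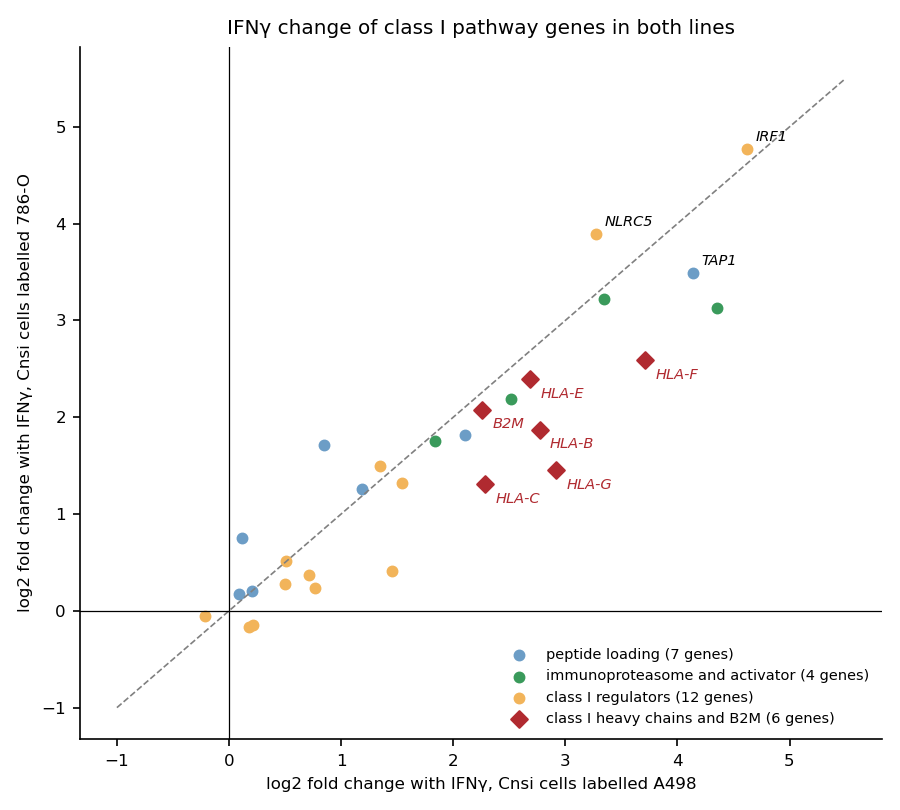
Log2 fold change with IFNγ in Cnsi cells, of A498-labelled libraries on the horizontal and of 786-O-labelled libraries on the vertical axis, for the 6 class I genes and for the listed genes tested in both lines (7 of peptide loading, 4 of the immunoproteasome and activator, 12 regulators), with equal changes on the dashed line. The 6 class I genes lie below the line, HLA-E and B2M close to it, and NLRC5 (3.28, 3.89) lies above it.

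Without IFNγ, PD-L1si in A498-labelled libraries also lowered 3 of the 10 peptide loading genes, TAP1 (-0.77 ± 0.0417), TAPBP (-0.61 ± 0.0437) and TAP2 (-0.59), the immunoproteasome subunit PSMB9 (-1.19), 1 of 5, and 2 of 14 regulators, IRF1 (-0.86 ± 0.0463) and NFKB1 (-0.67), beside 5.60% of all genes called lower. NLRC5 was at 43.0 ± 0.546 CPM, with a log2 fold change of 0.34 ± 0.0578 under the fold threshold, opposite in sign to the class I genes. Under IFNγ, PD-L1si in A498-labelled libraries gave 0 calls among the 10 peptide loading genes and 0 among the 5 of the immunoproteasome list. Of the 14 regulators 1 was called there, RELA, which was lower (-0.58), beside 10.1% of all genes called in either direction. In 786-O-labelled libraries without IFNγ, 7, 4 and 12 genes of these lists were tested, and TAPBP and TAP2 were among the rows at 0. The log2 fold changes of the genes tested there stayed under 0.5 in size, from -0.29 (HSPA5) to 0.24 (NLRC5).

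Pseudogenes that resemble the class I heavy chains, which can share reads with them, were called higher with IFNγ for 5 of 6 tested in A498-labelled libraries and 4 of 5 in 786-O-labelled libraries, HLA-H by 2.82 and 2.08 on the log2 scale, beside 18.2% and 11.1% of all genes. They held few counts, HLA-H 37 to 55 per A498-labelled Cnsi library and 210 to 342 with IFNγ. Of the other class I-like genes, which do not present common peptides, 1 of 6 was called higher in A498-labelled libraries, MR1 (1.57), and 2 lower, HFE (-1.19) and PROCR (-1.01), beside 18.2% of all genes called higher and 18.5% lower. In 786-O-labelled libraries 2 of 7 were higher, MR1 (1.18) and MICB (1.02), and HFE was lower (-0.55), beside 11.1% and 7.39% of all genes.

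The genes whose pattern over the 12 libraries of a line was most like the average of HLA-B, HLA-C, HLA-E, HLA-F and B2M, by Pearson's r of log2 (CPM + 1) among genes with a mean of at least 10 CPM, were PARP9 (r = 0.9998), UBE2L6 and IRF1-AS1 of 10018 genes in A498-labelled libraries, and IRF1 (r = 0.9997), PSMB10 and IRF1-AS1 of 9248 in 786-O-labelled libraries. By the lower r of both lines, IRF1-AS1, IRF1, PARP14 and PSMB10 came first of 8117 genes. The 12 libraries fall into treated and untreated libraries, so that such values describe a shared contrast with IFNγ.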

How the data were processed

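The 24 RNA-seq libraries were grouped by their labels into 8 groups of 3. Per the study's methods the authors trimmed reads with Trimmomatic 0.36.6, aligned them to GRCh38 with HISAT2 2.1.0 and counted them per gene with featureCounts 1.6.3 (stranded, mapping quality of at least 12, GENCODE release 33), and the deposited table holds these counts, not normalized. Differing identifier versions show that part of the gene models counted differ from release 44, which supplied transcript lengths here, and 173 genes were not matched to it. The versions differed for HLA-B, HLA-C, HLA-G and B2M and were the same for HLA-E and HLA-F. The RPKM, shares and ratios of the former thus rest on lengths of another release than their counts.

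Genes with 10 or more counts summed over the libraries of a group were fitted with edgeR 4.0.16 (R 4.3.3; TMM scaling, a mean per group, robust quasi-likelihood), per line and, for differences between lines, over all 24 libraries, with Benjamini-Hochberg adjustment. On simulated counts with known changes the steps recovered 100 of 100 changed genes per comparison and fold size, except 96 of 100 at a log2 fold change of 1 for the line difference in the interaction. The changed genes were drawn from genes with a higher CPM than HLA-G, at log2 fold changes of 1 and 2 in size. Smaller changes, and genes as low as HLA-G, were not covered. CPM were scaled within each line, and RPKM used the canonical transcript length. Ratios were compared by exact permutation tests (scipy 1.17.1). Replicates differed by more than sampling noise. Same-numbered replicates did not deviate together in every pair (mean correlation 0.0762 and 0.0994, lowest -0.189 and -0.316, over 18 pairs per line), so the numbers were not taken to pair samples. Intervals of summed counts cover counting error only.

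The 6 genes, the gene lists and the rule for named genes (the 6 genes in every group, the ends of each list's range, NLRC5, TAP1, TAPBP, IRF1, CD274, and the 5 most pattern-like genes) were chosen with earlier results of these data known. Other list genes in the text (TAP2, PSMB9, NFKB1, HLA-H, PROCR and MICB) were named after their values were seen. The text names fewer genes than the rule allows, and some of them are not reported here. Alternatives were DESeq2 1.42.0, other scaling, filters, thresholds, gene sets and lengths, a replicate block and leaving out each library.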

Additional observations from a re-analysis of the deposited data

Results flagged for a closer look

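The rise with IFNγ differed between the lines, by the test of the difference itself over 24 libraries. With Cnsi the difference, 786-O-labelled minus A498-labelled on the log2 scale, was -0.95 for HLA-B, -1.03 for HLA-C and -1.17 for HLA-F. With PD-L1si it was -1.06 for HLA-B, -1.15 for HLA-C, -1.47 for HLA-F and -0.75 for B2M. The change of HLA-F with PD-L1si in the absence of IFNγ differed by 0.63, and the interaction of siRNA and IFNγ for B2M by -0.52. The ratio of B2M to the heavy chains moved by -0.38 on the log2 scale with IFNγ in A498-labelled Cnsi libraries and by 0.37 in 786-O-labelled ones. Treated libraries lay on opposite sides of the untreated ones without overlap, but this difference between the lines was not tested. Line, sequencing instrument and alleles cannot be told apart in all of these. PD-L1si also lowered CD274 by a smaller factor in 786-O-labelled libraries, with and without IFNγ. The part of this in the differences that involve PD-L1si was not tested.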

How the results depend on the processing

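The calls of the 6 genes with IFNγ kept their direction and number under other scaling, filters, tests and fits, apart from HLA-G in 786-O-labelled libraries. With the adjusted p alone, without the fold threshold, calls rose to 3 (PD-L1si under IFNγ), 5 (PD-L1si without IFNγ) and 4 (interaction) of 6 in A498-labelled libraries, to 1 and 1 for PD-L1si in 786-O-labelled ones, and to 5 (IFNγ with Cnsi, from 3), 5 (IFNγ with PD-L1si, from 4), 3 and 5 (PD-L1si with and without IFNγ) for the line differences. Over all genes that setting gave, for PD-L1si under and without IFNγ and the interaction, 7122 against 2113, 6452 against 1773 and 1900 against 513 calls in A498-labelled libraries and 2974 against 643, 2721 against 597 and 46 against 21 in 786-O-labelled ones. For IFNγ with Cnsi and with PD-L1si it gave 12819 against 7688 and 12233 against 7008, and 8238 against 3914 and 8172 against 3912. For the line differences it gave 8177 against 5108, 7694 against 4700, 2606 against 953 and 1921 against 763. Without a filter the 786-O-labelled interaction had 47 calls. Among protein-coding genes the line difference in the interaction had 0 calls of 6. The rise of the HLA-B share, 4.71 and 5.67 percentage points, was 4.27 and 4.42 with counts in place of RPKM, and 4.71 over the union of exons in 786-O-labelled libraries, an alternative chosen after seeing the data. By that length the log2 ratio of HLA-B to HLA-C turned below 0 without IFNγ, to -0.40 and -0.36 in A498-labelled Cnsi and PD-L1si libraries and -0.84 and -0.73 in 786-O-labelled ones, and to -0.27 and -0.28 with IFNγ in the latter.

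With the replicate number as a block, calls of the 6 genes did not change, and 7670 in place of 7688 genes were called for IFNγ with Cnsi in A498-labelled libraries.

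Leaving out a library each, calls ran from 0 to 1 for PD-L1si under IFNγ in 786-O-labelled libraries and for the line difference in the interaction, and from 4 to 5 for the line difference with IFNγ and PD-L1si, where HLA-G was added without replicate 3 of 786-O-labelled PD-L1si IFNγ. The 786-O-labelled interaction ran from 8 to 40 calls over all genes. Signs turned for HLA-G with PD-L1si without IFNγ (-0.65 to 0.46 A498-labelled, -0.98 to 0.22 786-O-labelled, -1.14 to 0.45 for the line difference), for HLA-G in the interaction (-0.90 to 0.22 A498-labelled, -1.72 to 0.0730 for the line difference), for HLA-G with IFNγ and PD-L1si (-0.48 to 0.99, 786-O-labelled), and in 786-O-labelled libraries for HLA-E with PD-L1si (-0.0374 to 0.0661 under and -0.0637 to 0.00418 without IFNγ) and B2M without IFNγ (-0.0132 to 0.0628), none of which was called. HLA-G has too few counts to rank or compare firmly.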
